A study of Mus musculus with 6 samples.

Results

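The MEF2 transcription factors and the class IIa histone deacetylases were examined in C2C12 myotubes with and without knockdown of DJ-1. The genes listed were MEF2A, MEF2B, MEF2C, MEF2D, HDAC4, HDAC5, HDAC7 and HDAC9, and every probe carrying one of these names in the array file was taken and kept separate. This gave 7 of the 8 genes, with 15 of 45281 probes, among 30854 gene names in the file. MEF2A was not analysed here. The genes were chosen from results of the same contrast of DJ-1 siRNA with scramble siRNA. Their differences, intervals and counts past the threshold of the array are thus given as a description, with no p. Nothing is supported with them. The lists of other genes used below were also chosen with earlier results of these data known, so the shares of these lists are descriptions too.

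C2C12 is a mouse myoblast line, derived as 1 clone, whose cells join to form myotubes, the multinucleated precursors of muscle fibres, in low serum. Myoblasts in both groups received 60 nM siRNA, either a scramble sequence or 1 sequence against DJ-1 (gene name Park7). Differentiation in low serum began 48 h later and lasted 96 h (4 days). Total RNA of 3 samples per group was measured on 6 arrays of a single Illumina bead chip. A second DJ-1 siRNA and untransfected cells were not analysed here. The labels number the samples of a group but do not say that they were separate cultures, so p-values measure the spread between these samples, which may be technical. Detected probes (detection p under 0.05) numbered 16985, 17399 and 18179 with scramble siRNA, against 18704, 18857 and 18408 with DJ-1 siRNA. The median probe value rested on 36 to 41 beads. Detection was thus slightly lower on each scramble array than on each DJ-1 siRNA array, and the part of this in the results was not tested.

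MEF2 factors bind DNA with the myogenic bHLH factors and switch on structural and metabolic genes of muscle as myoblasts differentiate. Class IIa deacetylases have little catalytic activity of their own, bind MEF2 directly and hold its target genes silent by bringing in corepressor complexes. Calcium-dependent kinases and protein kinase D phosphorylate these deacetylases, which are then bound by Ywha adaptor proteins and leave the nucleus, so that MEF2 is released.

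The knockdown was examined first. The probe of Park7 read 12019.5, 10900.4 and 12251 (signal intensity as deposited) with scramble siRNA, against 5935, 6586 and 4234 with DJ-1 siRNA. All 3 knockdown values lay below all 3 scramble values. On normalized log2 values Park7 fell by 1.16 (standard error 0.14, adjusted p = 0.00344 from limma), which left 44.7% of the scramble signal.

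Among the MEF2 factors, MEF2C was lower in DJ-1 siRNA myotubes on all 4 of its tested probes. Its brightest probe (ILMN_2732465) read 4227, 4114 and 4058 in scramble myotubes and 872.5, 1331 and 630.0 in DJ-1 siRNA myotubes. A further probe (ILMN_2887992) read 2234, 2355 and 2196 against 495.8, 772.7 and 351.2. The third (ILMN_1214950) read 774.2, 851.4 and 888.1 against 269.1, 284.4 and 192.7. On each of these 3 probes the groups were far apart, the scramble arrays lay close together and the DJ-1 siRNA arrays were spread out, with replicate 2 the highest and replicate 3 the lowest. The normalized log2 signal of the brightest probe was 11.98 ± 0.03 (SD, n = 3) against 9.61 ± 0.43 (SD, n = 3). Its log2 difference was -2.37 (standard error 0.21, 95% confidence interval -2.88 to -1.87), a 5.18-fold lower signal. The differences of the other 2 probes were -2.48 (standard error 0.26, interval -3.11 to -1.85) and -2.61 (standard error 0.24, interval -3.18 to -2.04), the latter being -1.72 with a shift to a common 75th percentile and no background correction. In these bulk samples, fewer cells with the transcript and less transcript per cell cannot be told apart.

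**Figure D1:**
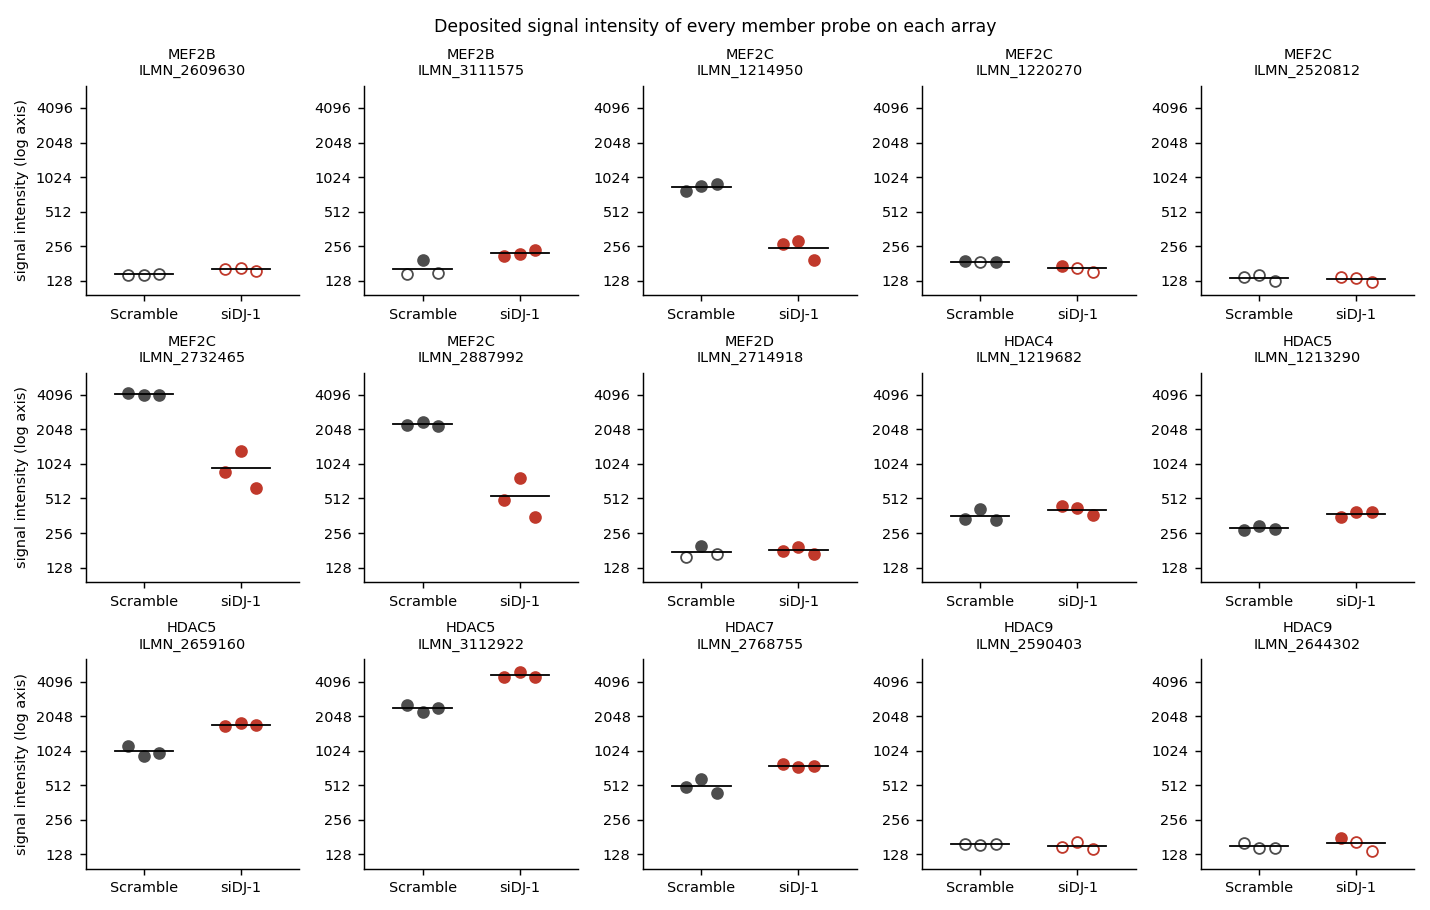
Deposited signal intensity (log axis) of all 15 probes of the 7 genes on the 3 scramble arrays (grey) and the 3 DJ-1 siRNA arrays (red), with the group mean as a line. Filled points were detected (detection p under 0.05) and open points were not, and panels are to be read across groups within a probe. The 3 bright MEF2C probes are low on every DJ-1 siRNA array, and the 3 HDAC5 probes are high on each of them.

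MEF2C has 2 further probes. ILMN_1220270, which the file assigns to another transcript record than the rest, was close to background at 188.2, 186.4 and 186.5 with scramble siRNA, against 171.8, 166.0 and 153.4 with DJ-1 siRNA. It was detected on 2 arrays of the scramble group and on 1 of the knockdown group. Its groups did not overlap, and its log2 difference of -0.52 (standard error 0.15, interval -0.88 to -0.16) shrank to -0.16 when no background was subtracted, where it no longer passed the threshold of the array. ILMN_2520812 was not detected on any array and read 124.2 to 142.8, so that no fold is given.

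RefSeq (GRCm38.p6) lists 3 starts for Mef2c, 1 for Hdac5 and 14 over all 8 genes of the list, and the 250 bases before each start were searched on both strands. The array does not tell which start was used. The sequences before the first and the last start of Mef2c and before the start of Hdac5 are shown because these genes differed between the groups on several probes each. Capitals mark E-boxes (CANNTG), the sequence type bound by myogenic bHLH factors, in Mef2c and the match to the MEF2 consensus in Hdac5.
Mef2c first start, chr13:83503784-83504033, plus strand: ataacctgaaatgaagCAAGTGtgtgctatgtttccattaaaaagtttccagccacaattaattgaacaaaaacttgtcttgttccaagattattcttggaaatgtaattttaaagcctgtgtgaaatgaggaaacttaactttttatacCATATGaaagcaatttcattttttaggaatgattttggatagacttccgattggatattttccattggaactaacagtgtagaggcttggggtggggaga
Mef2c last start, chr13:83573357-83573606, plus strand: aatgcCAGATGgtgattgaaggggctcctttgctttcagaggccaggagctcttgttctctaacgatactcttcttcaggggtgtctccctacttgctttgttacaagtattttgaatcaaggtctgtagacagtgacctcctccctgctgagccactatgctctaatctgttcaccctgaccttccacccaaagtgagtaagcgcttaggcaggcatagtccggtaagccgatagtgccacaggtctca
Hdac5, chr11:102230173-102230422, minus strand: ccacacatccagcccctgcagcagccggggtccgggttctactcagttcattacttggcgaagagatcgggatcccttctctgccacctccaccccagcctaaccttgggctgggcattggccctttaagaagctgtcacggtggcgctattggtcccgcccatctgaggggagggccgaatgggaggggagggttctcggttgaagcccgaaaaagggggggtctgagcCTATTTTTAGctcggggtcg
The first Mef2c window held 2 E-boxes, the last held 1, and the middle one held 0. E-boxes stood in 7 of the 14 windows, while 66.2% of all 32851 promoter windows of the same length hold 1 or more. The MEF2 consensus was matched before the Hdac5 start, at 20 to 11 bases from it and on both strands, and in no other of the 14 windows. It occurs in 2.92% of all promoter windows (959 of 32851), and it does not overlap the E-box of the Hdac5 window, which lies 89 to 84 bases before the start. A match is a description of the letters and shows no binding.

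**Figure D2:**
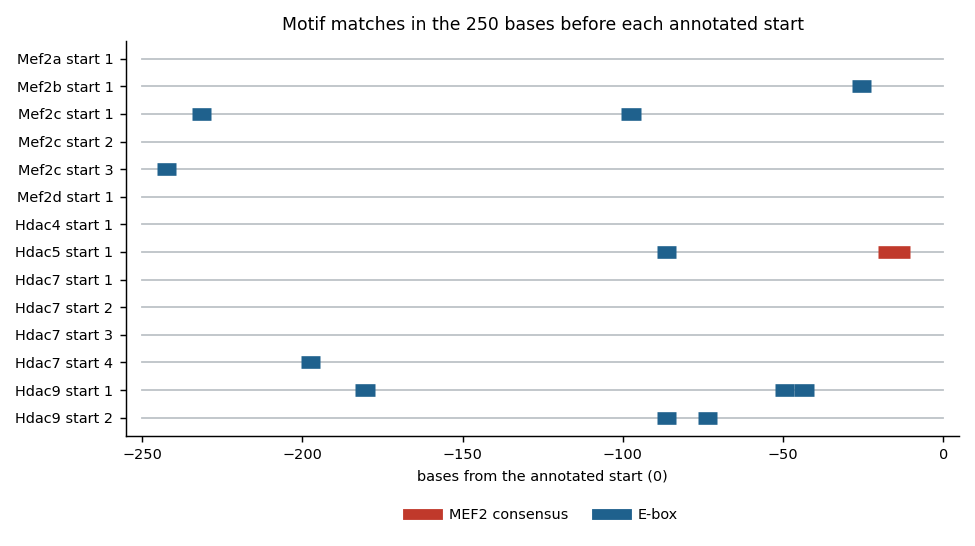
Position of motif matches in the 250 bases before each of the 14 annotated starts of the 8 genes, with the start at 0. Red marks the MEF2 consensus, matched before the Hdac5 start alone among these 14, and blue marks E-boxes.

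MEF2B and MEF2D were near the limit of detection. MEF2B probe ILMN_3111575 read 145.8, 193.1 and 148.3 in scramble myotubes and 212.1, 219.7 and 234.7 in DJ-1 siRNA myotubes. It was detected on 1 scramble array and on 3 DJ-1 siRNA arrays, so it passed the filter mainly through the group in which it was high. Its log2 difference was 1.38 (standard error 0.29, interval 0.69 to 2.06) and was 0.49 without background correction. The other MEF2B probe (ILMN_2609630) was not detected on any array, with readings of 144.6, 144.0 and 146.4 against 161.7, 165.7 and 154.3. MEF2D had a single probe (ILMN_2714918), which read 158.1, 198.0 and 166.9 against 177.0, 194.9 and 169.3. These values overlapped, and the log2 difference was 0.25 (standard error 0.21, interval -0.24 to 0.74). It was 0.05 without scramble replicate 1, 0.45 without scramble replicate 2 and 0.08 without background correction.

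Among the class IIa deacetylases, HDAC5 was measured on 3 probes that were detected on all 6 arrays. ILMN_3112922 read 2565, 2246 and 2425 in scramble myotubes and 4467, 5000.4 and 4478 in DJ-1 siRNA myotubes. ILMN_2659160 read 1122, 926.8 and 989.1 against 1684, 1793 and 1707. ILMN_1213290 read 274.3, 294.7 and 275.4 against 353.8, 388.8 and 387.0. Every DJ-1 siRNA array was above every scramble array on all 3 probes, and the arrays within a group were close together. The log2 differences were 0.96 (standard error 0.11, interval 0.71 to 1.21), 0.89 (standard error 0.13, interval 0.58 to 1.19) and 0.82 (standard error 0.15, interval 0.46 to 1.17), in the same order. The first of these is a 1.94-fold higher signal. Without background correction ILMN_1213290 gave 0.48.

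HDAC7 and HDAC4 had 1 probe each, detected on every array. HDAC7 (ILMN_2768755) read 493.1, 582.7 and 437.1 in scramble myotubes and 791.8, 741.4 and 751.0 in DJ-1 siRNA myotubes. The groups were apart, with a log2 difference of 0.86 (standard error 0.16, interval 0.48 to 1.24). HDAC4 (ILMN_1219682) read 341.9, 411.9 and 333.5 against 439.1, 423.5 and 365.0. Its deposited values overlapped, since scramble replicate 2 was above DJ-1 siRNA replicate 3, and its normalized values did not. Its log2 difference was 0.39 (standard error 0.13, interval 0.07 to 0.71), or 0.25 without background correction. HDAC9, itself a gene that MEF2 can activate, had 2 probes at background. ILMN_2590403 was not detected on any array at 142.1 to 164.1, and ILMN_2644302 was detected on 1 DJ-1 siRNA array at 138.2 to 177.9 over all arrays. No fold is given for HDAC9.

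**Figure D3:**
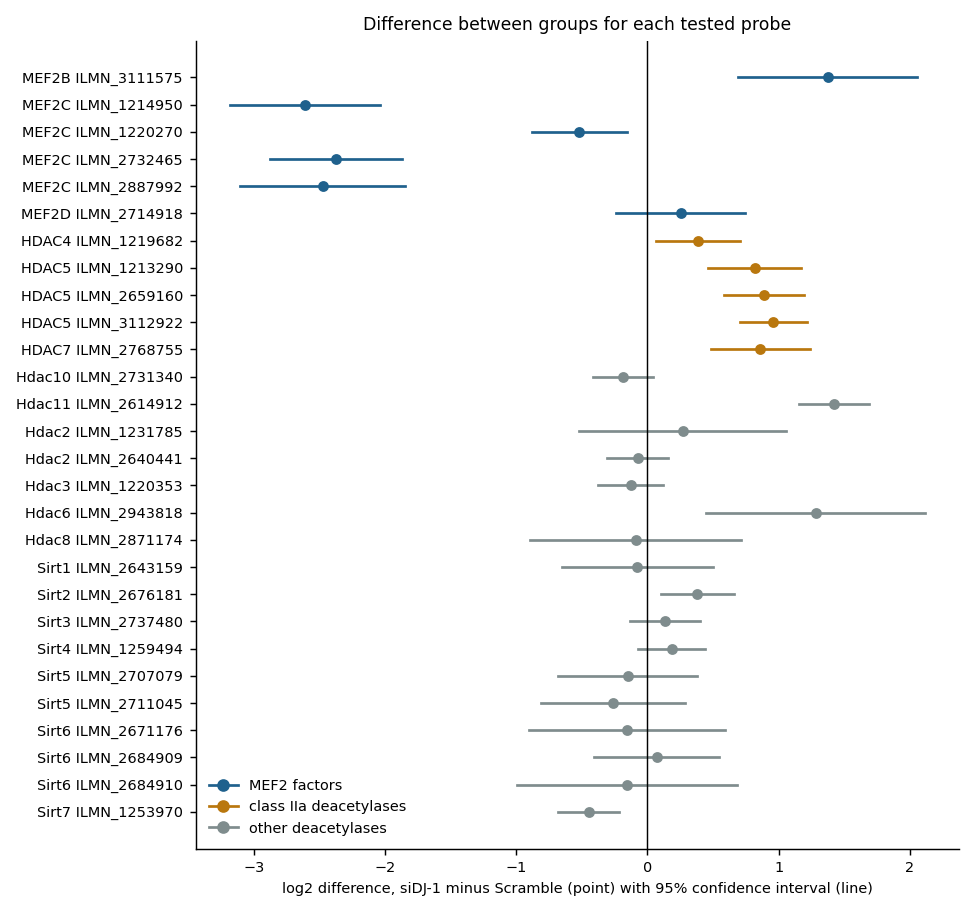
Log2 difference between DJ-1 siRNA and scramble myotubes (point) with its 95% confidence interval (line) for the 11 tested probes of MEF2 factors (blue) and class IIa deacetylases (orange) and the 17 tested probes of other deacetylases (grey). MEF2C lies left of 0 on 4 probes, HDAC5 and HDAC7 lie right of 0, and most other deacetylases have intervals that include 0.

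Of the 15 probes, 11 passed the filter on detection (at least 3 of 6 arrays), in 6 genes, and 3 of these were not detected on all arrays. At an adjusted p under 0.05 over all 17890 tested probes, 4 of the 11 were lower and 5 were higher in DJ-1 siRNA myotubes. Over the whole array 30.1% of tested probes passed this threshold, 13.6% lower and 16.5% higher. Normalized values of the groups were apart for 10 of the 11 probes, beside 48.5% of all tested probes. Nothing is read from these counts, because the genes were selected on this contrast. The 4 lower probes were all of MEF2C, and the 5 higher ones were 3 of HDAC5 and 1 each of HDAC7 and MEF2B. The lower count was 3, without ILMN_1220270, in all alternatives other than the 75th percentile shift and the one without scramble replicate 2.

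Probes of other genes were ranked by the likeness of their profile over the 6 arrays to that of the brightest MEF2C probe. The measure was the root mean square distance between log2 values centred on their mean (6 arrays each). The closest was BC025446 (current name Ly6g2), at a distance of 0.05. It was followed by the proteoglycan gene Fmod at 0.15, the fast myosin heavy chain gene Myh1 at 0.16, 4831437C03RIK at 0.16 and the tetraspanin gene Tspan8 at 0.17. BC025446 read 791.6, 768.0 and 763.5 in scramble myotubes and 250.2, 302.6 and 204.6 in DJ-1 siRNA myotubes. All 5 shared the low values in DJ-1 siRNA myotubes, with replicate 2 the highest and replicate 3 the lowest of these arrays. They were chosen by likeness over the same arrays, so nothing is read from this.

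**Figure D4:**
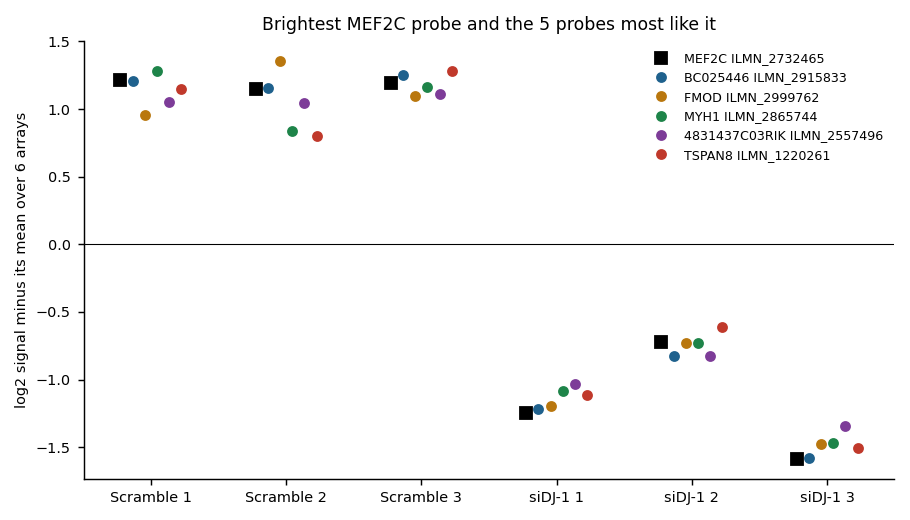
Normalized log2 signal minus its mean over the 6 arrays for the brightest MEF2C probe (black squares) and the 5 probes of other genes with the smallest root mean square distance to it (0.05 to 0.17). On each probe the scramble arrays are above 0, and DJ-1 siRNA replicate 2 is the highest of its group.

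The remaining deacetylases were compared with the class IIa genes through a list of 14, of which 13 had probes and Hdac1 was not analysed here. Of 17 tested probes, 3 rose (17.6%, beside 16.5% of all tested probes), 1 fell (5.88%, beside 13.6%) and 13 did not pass the threshold. The median log2 fold change was -0.08, beside 0.05 over all tested probes. The sign of this median turned when single arrays were left out (-0.09 to 0.07). Hdac11, the class IV enzyme, read 297.8, 314.4 and 307.1 in scramble myotubes and 613.6, 616.1 and 482.4 in DJ-1 siRNA myotubes. Its log2 signal rose by 1.43 (limma adjusted p = 0.00234, standard error 0.11), or 0.95 without background correction. The tubulin deacetylase Hdac6 rose by 1.28 (adjusted p = 0.0345 from limma), or 0.57 without background correction. It was detected on 2 scramble arrays, and its call was lost when any single array other than scramble replicate 2 was left out. The sirtuin Sirt7 fell by 0.45 (adjusted p = 0.0175), a call lost without DJ-1 siRNA replicate 1 or 2, and Sirt2 rose by 0.38 (adjusted p = 0.0486), the latter being lost whichever array was left out.

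Class I enzymes, which supply the catalytic activity of the corepressor complexes, gave small differences. Hdac3 read 3161, 2896 and 2758 in scramble myotubes and 2662, 2880.4 and 2639 in DJ-1 siRNA myotubes, and its log2 fold change was -0.13 (limma adjusted p = 0.382), which ranged from -0.19 with an array left out to near 0 with a shift to a common 75th percentile. Its second probe (ILMN_1221310) was not detected on any array. The bright probe of Hdac2 was at -0.08 (adjusted p = 0.596) with a sign that depended on the scaling (0.06 with a shift to a common 75th percentile), and its dim probe was at 0.27 (adjusted p = 0.579), with a sign that turned without scramble replicate 1 (-0.05). Values of both groups overlapped on each of these probes.

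The list of kinases and adaptors that move class IIa deacetylases out of the nucleus had 40 tested probes of 23 genes, with 9 probes of 6 genes lower and 8 probes of 6 genes higher. These are 22.5% and 20.0% of the list, beside 13.6% and 16.5% of all tested probes. With 1 array left out the counts went down to 5 lower (DJ-1 siRNA replicate 1) and 2 higher (replicate 1 or 3 of that group). The median log2 fold change of -0.04 was close to 0 and turned sign without the filter. Prkd2, a protein kinase D that phosphorylates class IIa deacetylases, read 600.6, 539.3 and 437.2 in scramble myotubes and 1080.4, 1056 and 889.5 in DJ-1 siRNA myotubes. It rose by 1.24 (standard error 0.15, adjusted p = 0.00344 from limma). The calcium/calmodulin kinase gene Camk2b read 1128, 1084 and 1237 against 525.9, 702.6 and 480.4. It fell by 1.18 (standard error 0.14, adjusted p = 0.00365 from limma). Both groups of arrays were apart on each of these probes. Camk1g was lower on 2 dim probes. ILMN_2856865 was not detected on any DJ-1 siRNA array and was lower by at least 1.93-fold (limma adjusted p = 0.0125), with the lowest detected signal of each array as the limit. This bound holds on the background-corrected scale, and the log2 difference was -0.42 without background correction. The call was lost without DJ-1 siRNA replicate 3, and nothing is read from it, since the probe passed the filter on detection through scramble arrays alone. ILMN_1228546 was detected on 1 DJ-1 siRNA array, and it fell by 1.12 (adjusted p = 0.00883), or 0.37 without background correction.

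Of 32 tested probes in 20 genes that activate MEF2 or act with it, 2 were lower (6.25%, beside 13.6% of all tested probes), 1 was higher (3.12%, beside 16.5%) and 29 did not pass, with a median of -0.07 that turned sign without the filter (0.01). The p38 kinase gene Mapk14 read 1136, 1190.1 and 1002 in scramble myotubes and 1274, 1340.3 and 1051 in DJ-1 siRNA myotubes, and its log2 fold change was 0.18 (limma adjusted p = 0.206). Its relative Mapk11 fell by 0.54 (adjusted p = 0.0274), or by 0.31 without background correction, and the calcineurin-regulated factor gene Nfatc4 fell by 0.55 (adjusted p = 0.0326). Both calls were lost without DJ-1 siRNA replicate 1 or 3 and without scramble replicate 2 or 3. A dim probe of Nfatc1 (ILMN_1224430) was undetected in all scramble samples and higher by at least 1.23-fold in DJ-1 siRNA myotubes on the background-corrected scale (adjusted p = 0.0119; 0.28 in log2 without the correction), while its other tested probes did not pass. It passed the filter on detection through DJ-1 siRNA arrays alone, so nothing is read from its call.

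The corepressor partners of class IIa deacetylases had 13 tested probes in 9 genes. Of these probes, 4 rose (30.8%, beside 16.5% of all tested probes), 0 fell (beside 13.6%) and 9 did not pass. The median was 0.31 (0.14 without background correction). At an unadjusted p under 0.05, limma gave 5 higher and 1 lower, and the same comparison without moderation gave 0 lower. Sin3a, the scaffold of a deacetylase complex, read 952.8, 1030.4 and 769.6 in scramble myotubes and 1352, 1416 and 1290.3 in DJ-1 siRNA myotubes, and it rose by 0.69 (standard error 0.13, adjusted p = 0.012 from limma). Tbl1xr1, a subunit of the nuclear receptor corepressor complex, rose by 0.65 (adjusted p = 0.0113). Its relative Tbl1x rose by 0.54 (adjusted p = 0.0467) and the repressor Bcl6 rose by 0.36 (adjusted p = 0.0473). The calls of Tbl1x and Bcl6 were lost in most settings with an array left out.

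Genes that MEF2 is known to activate in muscle were mostly lower where they changed. Of 40 tested probes in 30 genes, 15 probes of 13 genes fell, 1 rose and 24 did not pass, with a median log2 fold change of -0.30 beside 0.05 over all tested probes. The median ranged from -0.36 to -0.14 over the alternatives and left-out arrays. Thus 37.5% of the probes were lower, beside 13.6% of all tested probes, and 2.5% were higher, beside 16.5%. This is a description from which nothing particular to the list is drawn. The lower count was 9 when dim probes were not filtered out, and likewise when replicate 2 or 3 of the scramble group, or replicate 1 or 3 of the knockdown group, was left out. The sarcomere gene Tcap (ILMN_2933357) read 3466, 3302 and 3298 in scramble myotubes and 1583, 1778 and 1000.8 in DJ-1 siRNA myotubes. It fell by 1.33 (standard error 0.16, adjusted p = 0.00365 from limma). Xirp1, an actin-binding protein gene listed as CMYA1, read 901.2, 1036 and 990.5 against 441.6, 503.8 and 433.5. It fell by 1.28 (standard error 0.12, adjusted p = 0.00277 from limma). On both probes every DJ-1 siRNA array was below every scramble array. The Z-disc gene Ldb3 fell by 1.12 (adjusted p = 0.00557) on probe ILMN_3136283, while its probe ILMN_2713622 was at 0.46 (adjusted p = 0.158). Myoz1, a calcineurin-binding Z-disc gene detected on 2 of 3 DJ-1 siRNA arrays, fell by 2.15 (adjusted p = 0.00553), or by 0.94 without background correction.

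Not all named targets passed the threshold. The muscle creatine kinase gene Ckm, a classical MEF2 target, read 2162, 1832 and 1717 in scramble myotubes and 1917, 2096 and 1474 in DJ-1 siRNA myotubes. Its values overlapped, and its log2 fold change of -0.07 (limma adjusted p = 0.705) changed sign with the scaling (0.04 with a shift to a common 75th percentile). Ppargc1a, the coactivator of oxidative metabolism, was at 0.27 (adjusted p = 0.178), with overlapping values. It was 0.12 without background correction, and it passed the threshold without scramble replicate 1 (0.39). The target that rose was Klhl40, named here after its values were seen, by 0.39 (adjusted p = 0.0369). No MEF2 target was called higher (0) without the filter, with the replicate block or by the same comparison without moderation. The same held without any 1 DJ-1 siRNA array.

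**Figure D5:**
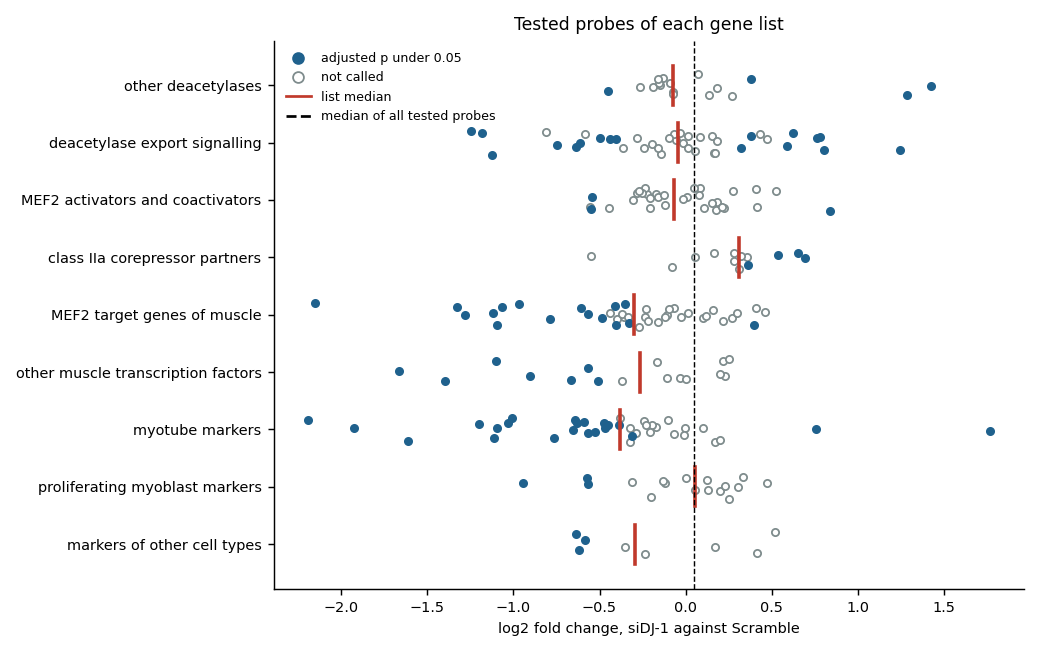
Log2 fold change of every tested probe of the 9 gene lists, DJ-1 siRNA against scramble (filled points, adjusted p under 0.05 by limma over all tested probes). Red bars are the list medians, from -0.38 for myotube markers to 0.31 for corepressor partners, and the dashed line is the median of all tested probes (0.05).

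Among the other transcription factors of muscle, 7 of 16 tested probes fell, 0 rose and 9 did not pass, with a median of -0.27 (-0.10 without the filter and -0.44 with a stricter one). The lower share was 43.8%, beside 13.6% of all tested probes, and the higher share was 0%, beside 16.5%. This list too was chosen with earlier results of these data known, so its shares are a description. At an unadjusted p under 0.05, limma gave 8 lower and 0 higher, and the same comparison without moderation gave 1 higher. Myod1, the bHLH factor that commits cells to muscle, read 1219, 1306 and 1084 in scramble myotubes and 673.6, 766.4 and 622.1 in DJ-1 siRNA myotubes. It fell by 0.90 (standard error 0.10, adjusted p = 0.00317 from limma). Tead4, which binds muscle promoters through a different motif, fell by 1.66 on probe ILMN_3157399 (adjusted p = 0.00317), or -0.94 without background correction, and fell by 1.10 on probe ILMN_2599986 (adjusted p = 0.00365), and its other probes were not detected on any array. The bHLH antagonist Id3 fell by 1.40 (adjusted p = 0.00494), or by 0.70 without background correction. The MADS-box relative Srf fell by 0.51 (adjusted p = 0.0325), a call lost with a shift to a common 75th percentile and with 4 of the 6 arrays left out in turn. Myog, the bHLH factor of terminal differentiation and a MEF2 target, was at -0.11 and 0.22 on its 2 probes (limma adjusted p of 0.432 and 0.212), with overlapping values, and the first changed sign with a shift to a common 75th percentile (0.02).

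Markers of myotubes had 38 tested probes in 19 genes, of which 20 fell, 2 rose and 16 did not pass, with a median of -0.38. The lower share was 52.6%, beside 13.6% of all tested probes, and the lower count was 10 without DJ-1 siRNA replicate 1 or 3. The higher share was 5.26%, beside 16.5%. The list was chosen with earlier results of these data known, so these shares are a description. Among the probes that did not pass, named after their values were seen, those of the actin genes Acta1 (-0.01) and Actc1 (0.17 and 0.20) differed little. The summed signal of the list was 425242, 445482 and 407389 with scramble siRNA, against 379429, 429877 and 339965 with DJ-1 siRNA. Its mean normalized log2 signal was 11.82, 11.74 and 11.82 against 11.38, 11.41 and 11.24. The myosin heavy chain gene Myh1 fell by 2.19 on probe ILMN_2865744 and fell by 1.93 on probe ILMN_2740259 (limma adjusted p of 0.00284 and 0.00304), and MYH2 was not detected on any DJ-1 siRNA array and was lower by at least 2.07-fold on the background-corrected scale (adjusted p = 0.00632). Its log2 difference was -0.58 without background correction, and it too passed the filter through scramble arrays alone, so nothing is read from its call. The titin probe ILMN_1228221 (TTN) rose by 1.77 (adjusted p = 0.00277), while other titin probes were called lower, with values given in the closing observations. The list shares Casq1, Ckm and Des with the MEF2 targets. The part of the myotube content of the samples in the values of MEF2C and its targets was not tested.

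Markers of proliferating myoblasts had 17 tested probes, with a median of 0.05 (-0.05 without scramble replicate 1). Of these, 3 were lower (17.6%, beside 13.6% of all tested probes) and 0 were higher (beside 16.5%). The 3 were Mcm5 (log2 fold change -0.94, adjusted p = 0.0102 from limma), Pcna (-0.57, adjusted p = 0.00916) and Ccnb1 (-0.57, adjusted p = 0.0161), the last a call lost without DJ-1 siRNA replicate 1 or 3. At an unadjusted p under 0.05, limma gave 4 higher probes of this list, and so did the same comparison without moderation. Of the markers of other cell types, 4 of 20 genes had a tested probe. Among the 8 tested probes, 3 were lower (37.5%, beside 13.6% of all tested probes), 0 were higher (beside 16.5%) and 5 did not pass. The median of this list was -0.29, and it ranged from -0.58 to -0.02 over the alternatives. Acta2, which C2C12 cells are known to express, fell by 0.63 on probe ILMN_2710354 and fell by 0.62 on probe ILMN_2710353 (limma adjusted p of 0.01 and 0.0118), and its 3 other tested probes did not pass. Pdgfra fell by 0.58 (adjusted p = 0.0493), a call lost without any 1 array other than DJ-1 siRNA replicate 2. No probe of this list rose, also at an unadjusted p under 0.05 by limma (0) and by the same comparison without moderation (0). The summed signal of the list was 71935, 89602 and 76741 against 66074, 75897 and 54701. The remaining 16 genes, among them Pecam1, Ptprc, Epcam and Adipoq, were detected on fewer than 3 arrays.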

How the data were processed

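Gene expression was measured in 6 samples of C2C12 myotubes, 3 with scramble siRNA and 3 with DJ-1 siRNA, grouped by their labels. The authors scanned 1 Illumina Mouse bead chip and used GenomeStudio. They deposited an intensity averaged over beads for every array and each of the 45281 probes, not normalized, beside its standard error and bead number. The deposited detection p-value of each probe says how its signal compares with negative controls. All 24 columns of sample values were matched to samples by title.

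In R 4.3.3, limma 3.58.1 corrected background by normexp, taking the background from detection p-values and adding an offset of 16, then applied quantile normalization and log2. A probe was tested where its detection p was below 0.05 on 3 or more arrays. The functions lmFit and eBayes gave p for these 17890 probes, with Benjamini-Hochberg adjustment across all of them. Intervals are 95% confidence intervals. The number of arrays limits the precision. The pipeline was tested on simulated data. Replicate numbers were not used as a block. A probe not detected on any array of 1 group has a bound: the other group's mean is set against a mean that takes, on each array, its own value or the lowest detected one, whichever is higher.

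Probes took current names through Entrez number or accession from the RefSeq table of GRCm38.p6 (32345 matched) and otherwise kept the name in the file. Members were found by name in the file. Named genes were all member probes, Park7, up to 4 called probes per list with the largest absolute log2 fold change among those with groups apart and detection on every array of a group, and, whatever their values, Hdac1, Hdac2, Hdac3, Myod1, Myog, Srf, Ppargc1a, Ckm and Mapk14. A repeated gene counts under each list. The 9 lists were other deacetylases, deacetylase export signalling, MEF2 activators and coactivators, class IIa corepressor partners, MEF2 target genes of muscle, other muscle transcription factors, myotube markers, proliferating myoblast markers and markers of other cell types. Members and lists were chosen with earlier results of these data known. The 8 alternatives were no background correction, scaling by the 75th percentile with and without it, no filter, a stricter filter, a trend in the prior variance, a replicate block and a t-test without moderation, beside each array left out.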

Additional observations from a re-analysis of the deposited data

How the results depend on the processing

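Across all 8 alternatives and each array left out, none of the 151 recomputed differences of the 11 tested member probes changed sign, and 9 moved by more than the spread between replicates. The number of member probes called lower was 3 or 4 and the number called higher was 4 to 6. The dim MEF2C probe ILMN_1220270 kept its call with the 75th percentile shift and without scramble replicate 2, lost it in the other settings in which it was tested, and was not tested under the stricter filter. Of 581 recomputed values of 42 named probes of other genes, 68 lost their call, 1 gained it (Ppargc1a) and 0 turned direction while called. Park7 fell in each of these settings. Dim probes are limited by their signal over background: differences near background were smaller whenever no background was subtracted.

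The number of probes called was 5387 and fell to 3519 without the filter, where more probes are tested, and it reached 6470 with a trend in the prior variance. It was 2564 to 5290 with an array left out, lowest when replicate 1 of the knockdown was left out and 2718 when its replicate 3 was. A t-test without moderation gave 7026 probes at an unadjusted p under 0.05 and 3674 after Benjamini-Hochberg.

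Same-numbered arrays had residual correlations of 0.05, 0.05 and 0.02, and every array correlated best with its own number. With 3 arrays per group, these small values cannot decide whether the numbers pair the samples. With the replicate block, the number of probes called was 4350. The block left 0 MEF2 target probes called higher (1 without it), 5 export signalling probes higher (8) and 2 corepressor probes higher (4).

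Counts that moved by over 1.5 times were as follows, main count in parentheses. Without the filter, 1 other deacetylase (3), 5 export signalling (8), 2 corepressor (4), 0 MEF2 target (1) and 1 myotube marker probe (2) were higher, and 0 activator (2), 9 MEF2 target (15) and 4 other transcription factor probes (7) were lower. By the t-test without moderation, 1 other deacetylase (3), 4 export signalling (8), 2 activator (1), 2 corepressor (4), 0 MEF2 target (1), 1 myotube (2) and 1 myoblast marker probe (0) were higher, and 5 export signalling (9), 0 activator (2), 4 other transcription factor (7) and 12 myotube marker probes (20) were lower. With no background correction, 2 activator (1) and 2 myoblast marker probes (0) were higher and 1 corepressor probe (0) was lower. With the 75th percentile shift, 2 activator (1), 4 myotube (2) and 2 myoblast marker probes (0) were higher. With that shift and no background correction, 3 activator (1), 4 myotube (2) and 2 myoblast marker probes (0) were higher and 1 corepressor probe (0) was lower. With the stricter filter, 1 myotube (2) and 3 myoblast marker probes (0) were higher and 1 corepressor probe (0) was lower. With a trend in the prior variance, 2 activator (1) and 2 myoblast marker probes (0) were higher, and 1 corepressor (0) and 5 other cell type probes (3) were lower.

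With an array left out, the lower counts ranged from 9 to 13 for MEF2 targets, 0 to 2 for other deacetylases, 5 to 10 for export signalling, 0 to 2 for activators, 4 to 5 for other transcription factors and 10 to 17 for myotube markers. The higher counts ranged from 0 to 3 for MEF2 targets, 1 to 2 for other deacetylases, 2 to 8 for export signalling, 1 to 3 for activators, 2 to 3 for corepressors, 1 to 2 for myotube markers and 0 to 1 for other cell types. Fewer arrays were compared there, and the cause of these shifts and of those with the alternatives was not tested.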

Other observations

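The 3 DJ-1 siRNA arrays kept a similar order on many probes that fell. Of the 2430 probes called lower on the whole array, 56.6% were lowest in DJ-1 siRNA replicate 3 and 63.2% were highest in replicate 2. Of the 15 MEF2 target probes called lower, 13 were lowest in replicate 3 and 12 were highest in replicate 2. Of the 4 MEF2C probes called lower, 3 and 3 were. On the same normalized log2 scale Park7 was 12.48, 12.49 and 12.15 on these arrays, close together in replicates 1 and 2 and lowest in replicate 3. Its part in this order was not tested.

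Among titin probes, named here after their values were seen, 2 were called higher and 3 were called lower by limma. ILMN_2744368 was higher by 0.76 (adjusted p = 0.0309 from limma) but was detected on 1 scramble array. ILMN_1223811, ILMN_3128792 and ILMN_2416670 had log2 fold changes of -0.76, -0.64 and -0.59. Mark3, also named after its values were seen, had probes that differed, with ILMN_1237478 higher by 0.76 (adjusted p = 0.0199) and ILMN_2598692 at -0.19 (adjusted p = 0.218).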
